A study of Mus musculus with 10 samples.

Results

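The lactating mammary gland of CBA mice was described from the 5 arrays whose records name the CBA strain at lactation day 9, out of 10 arrays in the series, the other arrays being of the QSi5 strain and not used here. Each array was hybridised with RNA from the inguinal gland of 1 mouse, and all 5 mice were CBA/CaH, an inbred strain that was not selected for fecundity, in their first lactation. By the series record the gland was the fourth inguinal one and the mice were force weaned once lactation had run for 9 days, whereas the methods speak of the right inguinal gland, and the time between weaning and collection is not given in the sources used here. Neither source gives the litter suckled by each of these mice or the hour of collection. CBA 1, CBA 4 and CBA 5 were measured on the MOE430 2.0 chip, and CBA 2 and CBA 3 on the smaller MOE430A 2.0 chip. The mice of an inbred strain share their genotype, so that the spread among these 5 arrays covers what differed between individual animals, their glands and their RNA samples.

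During lactation the alveolar epithelium of the gland secretes caseins and whey proteins, fat wrapped in membrane as globules, and lactose. Prolactin acts through Stat5 to keep the milk protein genes on, and the secretory cells make much of the milk fat themselves from glucose and from fatty acids taken from the blood. When milk is no longer removed, the gland involutes through signalling by Stat3, and genes of the acute phase response and lysosomal proteases are known to rise with it. Interferons act through other members of the Stat family and through Irf factors, and switch on GTPases, antigen processing genes and antiviral genes.

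The letters before the start sites of a few genes are shown first, since the gene groups on which the results turn are known as targets of these factors. The interferon-stimulated response element was searched as GAAANNGAAA and the gamma-activated site, the form bound by Stat factors, as TTCNNNGAA, on both strands and in the 250 bases before each start in RefSeq (GRCm38.p6). Capitals mark the matches.
Gbp2, chr3:142620543-142620662, plus strand: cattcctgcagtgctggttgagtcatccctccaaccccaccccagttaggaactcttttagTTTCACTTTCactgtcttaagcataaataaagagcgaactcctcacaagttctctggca
Gbp3, chr3:142559924-142560043, plus strand: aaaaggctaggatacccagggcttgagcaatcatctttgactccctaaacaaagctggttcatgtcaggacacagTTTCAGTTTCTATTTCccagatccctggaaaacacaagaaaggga
Igtp, chr11:58199436-58199555, plus strand: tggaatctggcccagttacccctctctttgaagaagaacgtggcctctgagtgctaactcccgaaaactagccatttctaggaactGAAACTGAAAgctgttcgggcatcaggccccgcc
Irgm1, chr11:48871421-48871540, minus strand: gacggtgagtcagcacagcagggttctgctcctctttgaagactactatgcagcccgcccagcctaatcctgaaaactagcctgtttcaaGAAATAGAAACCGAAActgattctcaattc
Irf1, chr11:53769894-53770013, plus strand: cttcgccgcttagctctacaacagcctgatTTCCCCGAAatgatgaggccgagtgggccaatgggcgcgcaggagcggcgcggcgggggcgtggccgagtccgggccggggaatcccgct
Csn2, chr5:87699426-87699545, minus strand: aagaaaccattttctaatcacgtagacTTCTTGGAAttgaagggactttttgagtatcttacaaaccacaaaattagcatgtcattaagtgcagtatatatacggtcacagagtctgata
Csn1s1, chr5:87666088-87666207, plus strand: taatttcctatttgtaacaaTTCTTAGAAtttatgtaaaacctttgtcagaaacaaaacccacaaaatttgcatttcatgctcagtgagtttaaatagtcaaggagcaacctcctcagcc
The lines from Gbp2 to Irgm1 carry the interferon element and those from Irf1 to Csn1s1 the gamma-activated site. The interferon element was present before 2.98% of all 32851 start sites and before 8 of the 16 interferon-induced genes kept here that had a window in the table. The gamma-activated site was present before 7.02% of all start sites, before 5 of those 16 genes and before 3 of 17 milk protein genes, namely Csn1s1, Csn2 and Glycam1. In 18 of the 109 windows that held both, the matches overlapped. A match describes these letters and does not show that a factor was bound.

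The values are log2 RMA values, a background-corrected and quantile-normalised signal per probe set. Of 22626 probe sets other than controls, 11032 had a CBA mean above 20 on the unlogged scale and were kept, and these covered 7164 genes, each taken on its brightest kept probe set. Array medians lay between 4.21 and 4.28. Across the kept probe sets, which are not independent, the correlation between pairs of mice ran from 0.935 for CBA 1 and CBA 3 to 0.980 for CBA 4 and CBA 5. The chips also hold control probe sets along the Actb and Gapdh messages, whose difference between the 3′ and the 5′ end grows as RNA is degraded or copied incompletely. For Actb the difference was 2.01, 3.23, 4.0, 1.63 and 3.00 on the log2 scale in CBA 1 to CBA 5. For Gapdh it was 1.62, 2.28, 3.28, 1.11 and 2.23. CBA 3 had the largest end difference of both messages and CBA 4 the smallest, and the order of the 5 mice was the same for both. The 2 mice with the largest differences were also the 2 mice on the MOE430A 2.0 chip, so that end difference and chip type cannot be told apart for them.

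The signal ranking was led by milk protein genes. Wap, the whey acidic protein, ranked first with values of 14.21, 14.21, 14.12, 14.21 and 14.26 in CBA 1 to CBA 5 (mean 14.20, SD 0.05, n = 5). It was followed by Csn3 (kappa-casein, mean 14.02, SD 0.07), Glycam1 (13.88, SD 0.06), Csn2 (beta-casein, 13.85, SD 0.07), Csn1s2a (13.81, SD 0.04), Csn1s2b (13.71, SD 0.19) and Csn1s1 (13.64, SD 0.08). Wfdc18, Lao1 and Lalba, the lactose synthase modifier alpha-lactalbumin, completed the first 10 genes. Lalba read 13.33, 13.13, 12.96, 13.32 and 13.30, so that CBA 3 was the lowest mouse. The next 10 genes were Tpt1, Rpl41, Cidea, Fabp3, Rps29, Mfge8, Rps28, Uqcrb, Lpl and Eef1a1. Of these, Cidea is a lipid droplet protein, Fabp3 carries fatty acids, Mfge8 coats the milk fat globule and Lpl releases fatty acids from blood lipids. The place of a gene in this ranking also reflects the affinity of its probes, so that it orders signals and not RNA amounts.

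Milk protein genes were also among the steadiest. The 20 top-ranked genes had a median SD of 0.12 and 0 of them had an SD above 0.5, whereas the median over all kept genes was 0.22. Of the 1791 genes with the highest means, Rab2a (a GTPase of transport between endoplasmic reticulum and Golgi), Ppm1g, Dusp7, Rpl38 and Clptm1 had the smallest SDs, each 0.04. The highest value of an array lay between 14.12 and 14.26, and quantile normalization gives all arrays one distribution, which leaves little room for a difference at the top. The part of this in the small SD of the caseins was not tested. Lower probe sets of the caseins spread more, with an SD of 0.70 for the second Csn3 probe set (mean 7.00) and of 0.54 and 0.59 for the 2 dimmest of 4 Csn1s2a probe sets (means 9.84 and 9.64).

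The minor proteins of milk, several of them with a role in defence, were less even. Of 20 milk protein genes kept, 5 had an SD above 0.5, against 7.76% of all genes. They were Slpi, a protease inhibitor (SD 1.08), Ltf (lactoferrin, SD 0.82), Lyz2 (a lysozyme also made by macrophages, SD 0.77), B2m (the light chain of MHC class I, SD 0.66) and Lpo (lactoperoxidase, SD 0.60). All 5 had their highest value in CBA 3. Over the 20 genes CBA 3 was highest for 9, against 27.7% of all genes, and lowest for 7, against 27.1%. Slpi read 7.87, 8.06, 9.65, 7.09 and 6.92, and Ltf read 12.18, 11.62, 12.52, 10.60 and 10.86, so that CBA 4 and CBA 5 were the lowest mice for both. Folr1, a folate receptor, was lowest in CBA 2 with values of 11.33, 10.38, 11.10, 11.68 and 11.43. Fat globule and lipid droplet genes spread less, with 1 of 15 above an SD of 0.5, near the 7.76% of all genes. Btn1a1 (SD 0.13) and Xdh (SD 0.14), which with Plin2 (SD 0.45) are known from the secretion of the fat globule, were both steady.

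**Figure D1:**
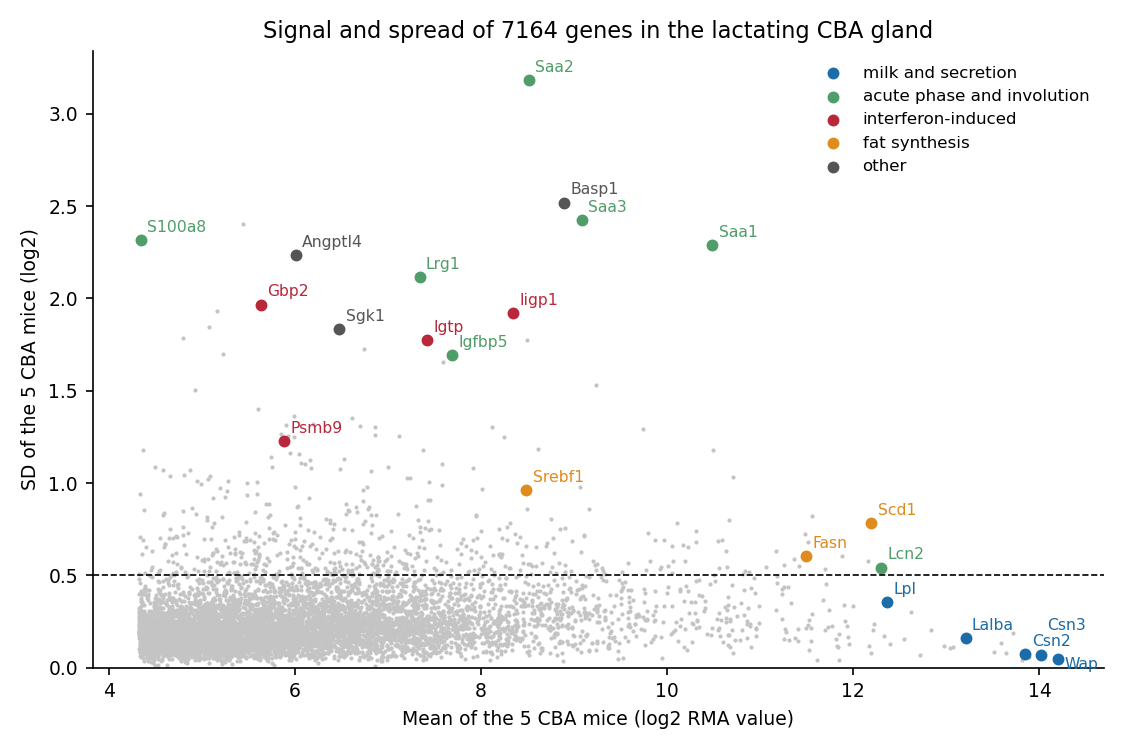
Mean signal (x axis, log2 RMA value) and SD among the 5 CBA mice (y axis, log2) of the 7164 kept genes, 1 point per gene, with named genes coloured by group and the SD of 0.5 as a dashed line. The caseins and Wap lie at the far right near an SD of 0, whereas Saa2, with a mean of 8.51, lies highest with an SD of 3.18.

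Over all kept probe sets the median SD was 0.23 (interquartile range 0.15 to 0.33), 982 probe sets (8.9%) had an SD above 0.5 and 119 an SD above 1. With 5 mice the 95% interval of an SD runs from 0.599 to 2.87 times its value, if values are normally distributed. In the 1104 probe sets of lowest signal the median SD was 0.19 and 5.07% lay above 0.5, and in the 1104 of highest signal it was 0.28 with 14.9% above 0.5. In 6.07% of genes 1 mouse was apart from the rest, with a gap to its nearest neighbour of over 0.71 of the whole range. To describe which mouse lay behind a spread, the mouse farthest from the median of the 5 was recorded for each of the 982 probe sets. CBA 3 lay farthest on the high side for 363 (37.0%, against 17.9% of all kept probe sets), and CBA 1 on the high side for 178 (18.1%, against 10.96%). On the low side CBA 4 was farthest for 88 (8.96%, against 7.35%), CBA 1 for 84 (8.55%, against 7.37%) and CBA 5 for 73 (7.43%, against 7.54%). These low-side shares were near those of all kept probe sets. CBA 4 and CBA 5 held the 2 lowest values for 345 (35.1%, against 14.9% of all kept). The 2 lowest values were those of CBA 1 and CBA 4 for 170 (17.3%, against 9.74%) and of CBA 1 and CBA 5 for 117 (11.9%, against 8.19%). Of the 556 genes with an SD above 0.5, 5.76% followed the order of the end difference exactly, against 1.73% of all genes, and 32.2% had their 2 highest values in CBA 3 and CBA 2, against 14.0%. The part of RNA quality and of chip type in the spread was not tested.

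The widest spreads were of several patterns. Clca3a2, of the family of calcium-activated chloride channel regulators, read 7.61, 5.75, 7.90, 2.92 and 3.02, and Cdhr1, a cadherin-related protein, read 6.82, 5.27, 7.01, 3.66 and 3.40. Both were highest in CBA 3 and CBA 1 and lowest in CBA 4 and CBA 5. The gene 1810065E05Rik (9.38, 7.55, 5.13, 5.69 and 5.95) and Defb1, a beta-defensin (8.41, 7.70, 5.89, 5.33 and 5.76), were high in CBA 1 and CBA 2.

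**Figure D2:**
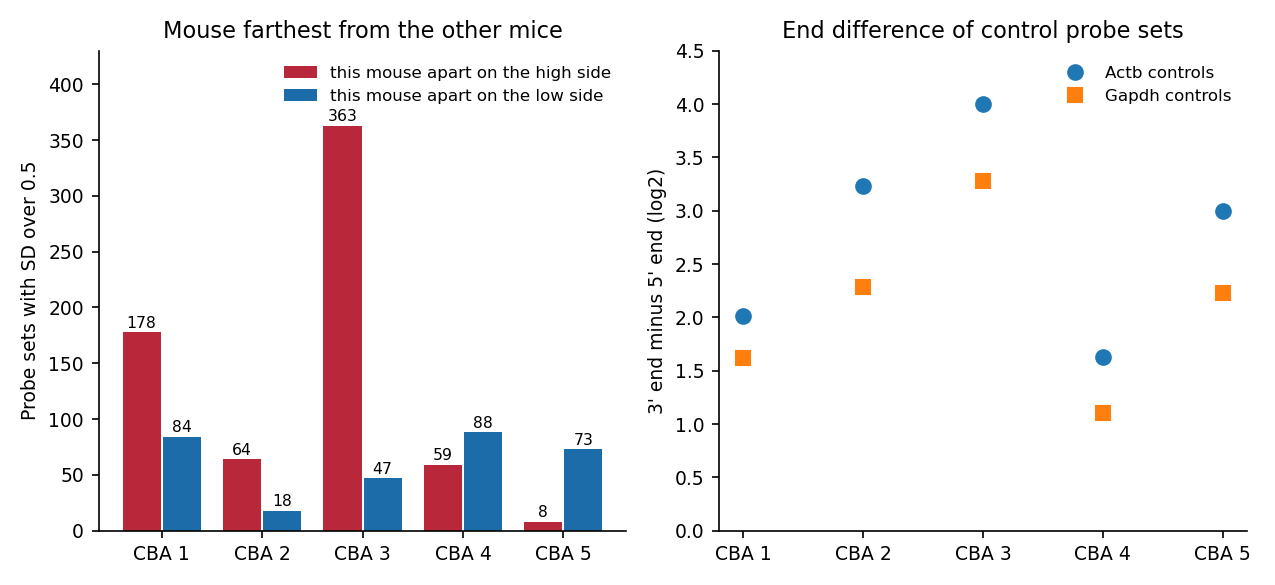
Left, number of probe sets with an SD above 0.5 (y axis) for which each CBA mouse lay farthest from the median of the 5 on the high (red) or the low side (blue). Right, difference between the 3′ and 5′ ends of the Actb and Gapdh control probe sets in each mouse (y axis, log2), which was largest in CBA 3 (4.0 and 3.28), the mouse with the tallest bar (363 probe sets).

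The interferon-induced genes as a list were high in CBA 3 alone. Of 24 genes kept from 31 on the chip, 18 had an SD above 0.5, against 7.76% of all genes, and in all of these 18 the mouse farthest from the median was CBA 3, on the high side. The median SD of the list was 0.67. CBA 3 gave the highest value for 22 of the 24, against 27.7% of all genes, the exceptions being Ifi35 and Irf9. Gbp3 and Usp18 passed the signal filter only through CBA 3. With the filter set on the other 4 mice, a choice made after seeing the data, 16 of 22 genes had an SD above 0.5 (7.61% of all genes) and 20 of 22 were highest in CBA 3 (27.3% of all genes). The level of the list, the mean over its genes of the value minus the mean of the 5 mice, was -0.40, -0.41, 1.52, -0.38 and -0.33 in CBA 1 to CBA 5, whereas the level of all genes lay between -0.04 and 0.04. Without CBA 3, 1 of the 24 genes had an SD above 0.5, against 5.53% of all genes. The 3 mice on the MOE430 2.0 chip differed by at most 0.08 in the level, and the pair on the MOE430A 2.0 chip by 1.92.

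Among the GTPases that act on membranes of intracellular microbes, Iigp1 read 7.22, 7.69, 11.76, 7.51 and 7.53, a range of 23.3-fold. Gbp2, a guanylate-binding protein, read 4.80, 5.06, 9.13, 4.60 and 4.57, and Igtp, a GTPase of the Irg family, read 6.34, 6.51, 10.56, 6.91 and 6.77. Ifi47, of the same family as Igtp, read 5.52, 5.29, 8.42, 5.33 and 5.39. For each of these CBA 3 lay far above the other 4 mice, which were close to each other, and the second probe sets of Iigp1 and Gbp2 gave the same order of CBA 3 over the rest (10.70 against 5.16 to 6.34, and 8.96 against 4.04 to 4.49). Gbp3 and Irgm1, of the same families, followed with 7.98 against 3.83 to 4.21 and 8.09 against 5.02 to 5.46. Iigp1 has no window shown here, and Gbp2, Gbp3, Igtp and Irgm1 are those with the interferon element printed above. Irf1, a transcription factor of the response, read 6.78, 6.96, 8.06, 6.76 and 6.41, a smaller step on the same side. Some genes are known chiefly for the response to type I interferon. Oas1a read 7.24 and Rsad2 6.87 in CBA 3 against at most 5.79 and 6.13 in the other mice, while Mx2 read 4.81, 5.15, 5.42, 4.93 and 5.16. CBA 3 was the highest mouse for these 3 too on their brightest probe sets. A second Rsad2 probe set of similar signal hardly spread and was highest in CBA 1 (5.68, 5.47, 5.57, 5.67 and 5.67). Of the 7 list genes below the signal filter, Ifit1 read 2.88, 3.15, 5.39, 2.84 and 2.86, and Mx1 lay between 2.96 and 3.13 in all mice.

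Several antigen processing and presentation genes were highest in the same mouse. Tap1, a subunit of the peptide transporter, which is also on the interferon list, read 4.34, 4.71, 6.86, 4.58 and 4.82. The class I genes H2-D1 (7.45, 8.18, 9.51, 8.30 and 7.93) and B2m (9.79, 9.75, 11.19, 10.02 and 9.52) were likewise highest in CBA 3. H2-K1 was highest in CBA 5 on its brightest probe set (6.61, 6.46, 7.13, 6.53 and 7.26), and on 2 further H2-D1 probe sets CBA 3 led by little, with 7.21 against 7.09 in CBA 1 and 6.17 against 6.15 in CBA 4. The class II genes H2-Aa, H2-Ab1, H2-Eb1 and Cd74 had SDs of 0.15 to 0.26 on their brightest probe sets. Dimmer probe sets had an SD of 0.46 for H2-Aa, with the highest value in CBA 4, and of 0.30 for H2-Ab1, with the lowest in CBA 3. Over the 10 genes of this list that were kept, 5 had an SD above 0.5, against 7.76% of all genes, and without CBA 3 there were 0, against 5.53%. The alleles of class I genes share sequence, so that their probe sets may respond to several of them.

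The proteasome list had a level of 0.51 in CBA 3, with the other mice at -0.22 to -0.06. In CBA 3 lay the highest value of 28 of its 36 genes, against 27.7% of all genes. With all mice 10 of the 36 had an SD above 0.5, against 7.76% of all genes, and without CBA 3 there was 1, against 5.53%. Psmb9 and Psmb8, inducible catalytic subunits of the immunoproteasome, were the most spread (SD 1.23 and 1.08), and Psmb10, another, had an SD of 0.83. Psmb9 read 5.28, 5.0, 8.03, 5.64 and 5.45, Psmb8 read 5.61, 5.51, 8.08, 6.0 and 5.67, and Psmb10 read 5.21, 5.23, 7.19, 5.51 and 5.51. CBA 3 was far above the other mice in each. Among subunits of the constitutive particle were Psma6 at 7.93, 8.56, 9.27, 8.11 and 8.24. Psmc4, an ATPase of the regulatory cap (SD 0.83), read 6.0, 6.92, 7.85, 5.92 and 6.08 on its brightest probe set, in the same order of mice as the end difference of the control probe sets, but 6.32, 6.30, 6.59, 6.17 and 6.18 on the other. Of the 36 genes 3 followed that order of mice exactly, against 1.73% of all genes, and 0 of the 24 interferon-induced genes did, although 6 of those 24 had their 2 highest values in CBA 3 and CBA 2, against 14.0%. Psmb8 and Psmb9 are on both lists.

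Macrophage markers lay on the same side. Of the 15 kept from 22 on the chip, 13 were highest in CBA 3, against 27.7% of all genes, and their level was -0.10, -0.23, 0.59, -0.04 and -0.23. Cx3cr1 passed the filter only through CBA 3, and with the filter on the other 4 mice it was 12 of 14. An SD above 0.5 was found for 4 of the 15, against 7.76% of all genes, and without CBA 3 for 0, against 5.53%. Lyz1 (lysozyme, 5.92, 5.56, 8.31, 6.12 and 6.49), Lyz2 (5.49, 5.38, 7.33, 6.08 and 6.01) and the protease Ctss (6.54, 6.38, 7.76, 6.60 and 6.23) were the most spread. Others were nearer together, such as Csf1r, the receptor of a macrophage growth factor, at 6.92, 6.78, 7.35, 6.74 and 6.58, and Adgre1, which encodes F4/80, at 5.90, 5.95, 6.39, 5.90 and 5.89. A second Csf1r probe set of similar signal was lowest in CBA 3 (6.59, 6.55, 6.16, 6.73 and 6.58), and a dimmer one was highest there (5.63). C1qa was an exception with its highest value in CBA 4 (6.99, against 6.23 in CBA 3), and Cd68, Mrc1, Cd163 and Itgam were below the filter in signal. More cells of a type and more RNA per cell cannot be told apart in RNA of whole glands, and the part of macrophages in the high interferon level of CBA 3 was not tested. T and NK cell markers, of which 5 of 18 were kept, had levels between -0.10 and 0.07.

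The acute phase and involution list was the most spread of all lists. Of 26 genes kept from 31 on the chip, 22 had an SD above 0.5, against 7.76% of all genes, and the median SD was 0.97. Its level was 0.71, 0.11, 1.02, -0.94 and -0.91 in CBA 1 to CBA 5. CBA 4 and CBA 5 held the 2 lowest values for 18 of the 26 genes, against 14.7% of all genes. Without CBA 3 the count above an SD of 0.5 was still 16, against 5.53% of all genes, and without CBA 1 it was 18, against 7.47%. Of the 26 genes, 10 were highest in CBA 3 (against 27.7% of all genes) and 12 in CBA 1 (against 20.1%). S100a8 and Chil1 passed the filter only through CBA 3. With the filter on the other 4 mice, 20 of 24 had an SD above 0.5, against 7.61% of all genes. Then 8 of 24 (33.3%) were highest in CBA 3, near the 27.3% of all genes.

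The serum amyloid A genes, acute phase proteins that the mammary epithelium also makes, had the widest ranges. Saa2 read 9.47, 8.92, 13.11, 5.07 and 5.99, a range of 264-fold. Saa1 read 11.56, 11.48, 13.20, 8.11 and 8.08, and Saa3 read 9.20, 8.94, 13.05, 7.15 and 7.08. For all 3 genes CBA 3 was highest, CBA 1 and CBA 2 lay in between and close to each other, and CBA 4 and CBA 5 were lowest, so that the spread held also within each chip type. Saa1 and Saa2 are near-identical in sequence and their probe sets may share signal. Orm2, an acute phase glycoprotein (9.09, 8.35, 11.05, 7.72 and 6.25), and Lcn2, the iron-binding lipocalin (12.54, 12.23, 13.01, 12.18 and 11.53), were also highest in CBA 3. S100a8, known from neutrophils and from inflamed epithelium, was near the floor in the other mice with values of 3.20, 3.28, 8.48, 3.31 and 3.44, and Chil1, a chitinase-like protein, read 4.35, 4.11, 8.61, 4.43 and 4.32. CBA 3 stood alone in both. The partner of S100a8, S100a9, read 3.17, 3.36, 4.17, 3.00 and 3.19 and did not pass.

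A further set of this list was highest in CBA 1. Igfbp5, which binds insulin-like growth factors and is known to rise in involution, read 10.10, 8.14, 8.05, 5.77 and 6.40. Cd14, a receptor for bacterial lipopolysaccharide, read 11.41, 9.27, 9.87, 7.55 and 8.05. Both were lowest in CBA 4 and next lowest in CBA 5, although a second Igfbp5 probe set of lower signal read 6.80, 6.47, 6.50, 6.81 and 7.00. Stat3, the factor that drives involution, read 9.46, 8.37, 7.92, 7.10 and 7.18. Its known target Cebpd read 9.03, 6.98, 6.70, 6.74 and 6.59 on its brightest probe set, high in CBA 1 alone. Socs3, also a known target, read 5.85, 6.06, 4.94, 3.95 and 3.93 on its brightest, high in both CBA 1 and CBA 2. The other Socs3 probe sets, of similar signal, were highest in CBA 1. The dimmest of them read 5.93, 4.65, 4.41, 4.49 and 4.48, high in CBA 1 alone like Cebpd. A difference between these targets thus rests on the Socs3 probe set chosen. Tgfb3, which is known to rise with milk stasis, read 7.98, 7.08, 6.21, 5.92 and 6.08, and the lysosomal protease Ctsl read 11.30, 10.16, 9.68, 10.24 and 9.74. On the brightest probe sets CBA 1 was the highest mouse in each of these but Socs3. Lrg1, an acute phase glycoprotein, was high in CBA 1 and CBA 3 and low in CBA 4, with values of 9.77, 7.83, 8.66, 4.49 and 5.96. Mmp2, Mmp14, Timp1 and Il6st, also on the list, had SDs of 0.09 to 0.25. The end difference of the control probe sets was smallest in CBA 4 and in the middle of the 5 mice in CBA 5, and its part in this list was not tested.

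**Figure D3:**
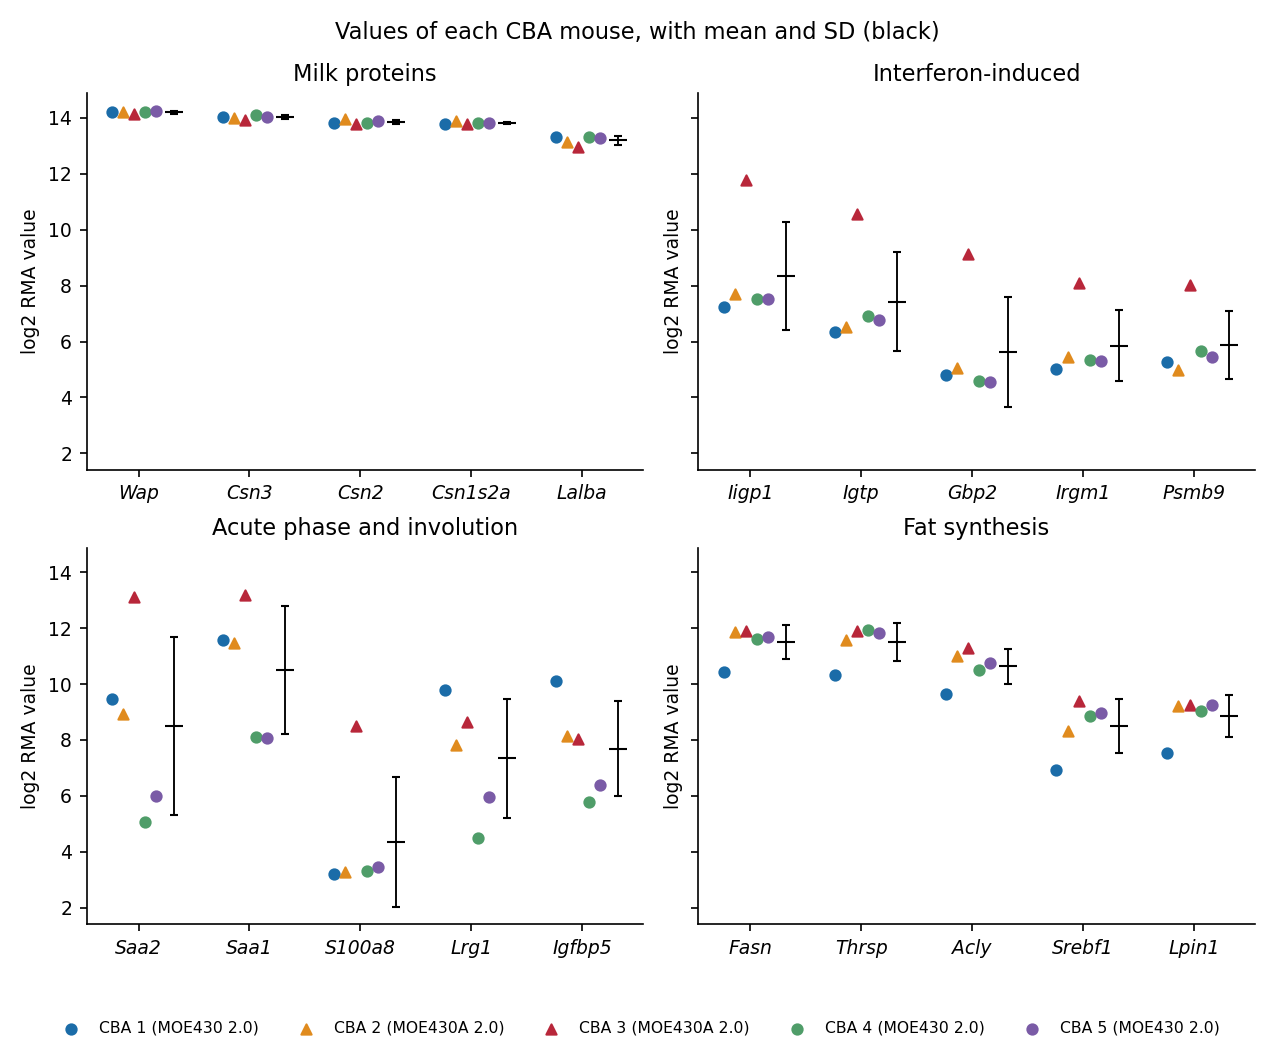
Values of single genes in each CBA mouse (y axis, log2 RMA value; triangles, MOE430A 2.0; circles, MOE430 2.0), with the mean and SD in black. CBA 3 (red triangle) stands above the other mice for the interferon-induced genes, CBA 4 and CBA 5 lie lowest for Saa2, Saa1, Lrg1 and Igfbp5, CBA 1 (blue) lies lowest for the fat synthesis genes, and the milk protein genes hardly spread.

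CBA 1 was the low mouse for genes of milk fat synthesis. Of 29 genes of fatty acid and triglyceride synthesis kept, 20 were lowest in CBA 1, against 17.2% of all genes. An SD above 0.5 was found for 13, against 7.76% of all genes. The list's level was -0.58, 0.18, 0.40, 0.05 and -0.05. Without CBA 1 the count above an SD of 0.5 was 5 of 29, against 7.47% of all genes. On the MOE430 2.0 chip alone the level spanned 0.62 with CBA 1 again lowest. Srebf1, the transcription factor of the lipogenic programme, read 6.91, 8.30, 9.39, 8.87 and 8.97. Fasn, the fatty acid synthase, read 10.44, 11.86, 11.90, 11.59 and 11.67, and Acly, which makes cytosolic acetyl-CoA from citrate, read 9.64, 11.01, 11.29, 10.49 and 10.75. CBA 1 lay below all other mice for each. The same was seen for Thrsp, a regulator of lipogenesis (10.31, 11.59, 11.90, 11.92 and 11.83), for Lpin1, a phosphatase of triglyceride synthesis (7.52, 9.20, 9.24, 9.03 and 9.26), and for the elongase Elovl5 (10.10, 11.11, 11.30, 11.39 and 11.38). The second probe sets of Acly, Lpin1, Thrsp and Elovl5 were likewise lowest in CBA 1, whereas the dimmest of 3 Acly probe sets was lowest in CBA 2 (6.09, 5.81, 6.92, 7.61 and 6.47).

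Not every gene of the list followed. Scd1, the desaturase, had low values in both CBA 1 and CBA 5 (11.45, 12.99, 12.83, 12.41 and 11.29). Olah, the thioesterase that ends the chains of medium length typical of milk, read 11.77, 11.62, 11.57, 11.09 and 11.58, with its highest value in CBA 1. Acsl4 and Dgat1 were, on their brightest probe sets, lowest in CBA 5 and farthest from the median in CBA 3, on the high side. Dgat2 was farthest in CBA 3 too, but lowest in CBA 1 (5.13, 6.53, 6.72, 5.82 and 5.50). Cholesterol synthesis genes, which answer to the related factor Srebf2, had levels between -0.05 and 0.12, and 1 of 22 had an SD above 0.5, against 7.76% of all genes. Slc2a1, the glucose transporter that supplies the secretory cell, read 7.22, 8.45, 9.18, 8.29 and 8.70 and was also lowest in CBA 1, as was Hk2, a hexokinase (5.67, 6.42, 6.94, 6.63 and 6.49). Respiratory chain genes were lowest in CBA 1 for 42 of 73, against 17.2% of all genes, with a level of only -0.23. Of the 73, 5 (6.85%) had an SD above 0.5, near the 7.76% of all genes. In the fat synthesis list CBA 2 and CBA 3, the mice with the largest end differences and on the MOE430A 2.0 chip, held the 2 highest values for 12 of 29 genes (41.4%, against 14.0% of all genes), and the part of this in the list's spread was not tested.

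On the high side CBA 1 was led by genes of other roles. Angptl4, an inhibitor of lipoprotein lipase that fasting induces in several tissues, read 9.61, 6.56, 5.41, 4.05 and 4.44, a range of 47.3-fold. Pdk4, the kinase that shuts off pyruvate dehydrogenase, read 7.54, 4.55, 4.45, 4.44 and 3.66. CBA 1 was far above the other mice for both. Of 19 genes of fatty acid oxidation, with a median SD of 0.31, these were among 4 above an SD of 0.5, against 7.76% of all genes. Pdk4 passed the signal filter only through CBA 1. The other genes above an SD of 0.5 were Acadl, an acyl-CoA dehydrogenase (SD 0.74), and Slc25a20, the carnitine carrier (SD 0.63), both highest in CBA 3. Basp1, a membrane-bound signalling protein, read 11.95, 11.05, 8.11, 6.01 and 7.33, and Slc5a8, a carrier of short-chain fatty acids and lactate, read 8.15, 5.39, 4.33, 3.91 and 3.61. The transcription factor Sox4 read 10.25, 8.05, 6.47, 7.00 and 6.17, with 3 of its 4 other probe sets ranging over more than 2 log2 and highest in CBA 1. Immediate early genes had a level of 0.58 in CBA 1, 0.13 in CBA 2 and -0.41 in CBA 5. Btg2 (7.98, 5.68, 4.58, 5.15 and 4.63), Rhob, Ier3, Junb and Klf6 were farthest from the median in CBA 1, on the high side, whereas Egr1 had its highest value in CBA 4. The order of CBA 1, then CBA 2, above the other mice also held for Sox4, Basp1, Slc5a8 and Btg2.

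**Figure D4:**
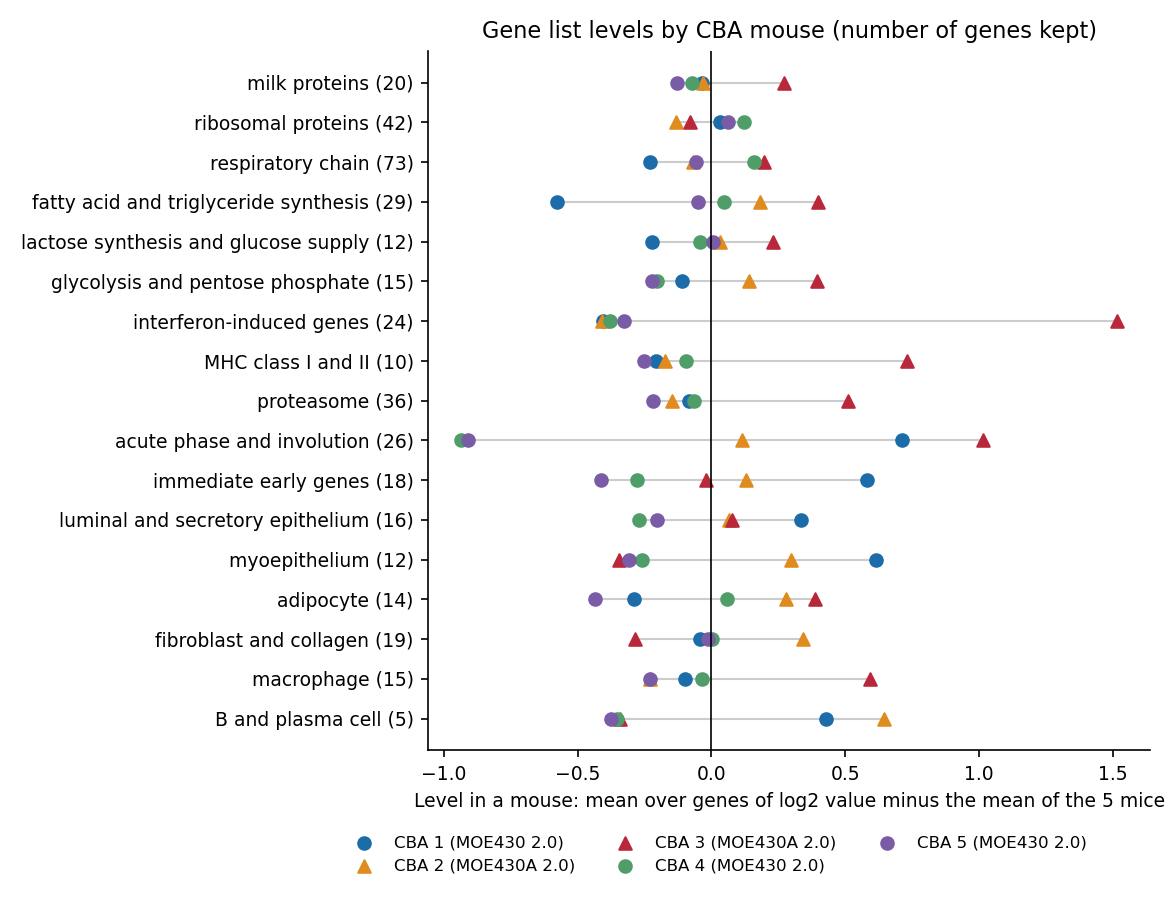
Level of 17 gene lists in each CBA mouse (x axis, mean over the genes of the log2 value minus the mean of the 5 mice; triangles, MOE430A 2.0; circles, MOE430 2.0), with the number of genes kept in brackets. The interferon list separates CBA 3 (1.52) from the other mice, the acute phase list places CBA 4 and CBA 5 lowest (-0.94 and -0.91), and the ribosomal list stays within -0.13 and 0.12.

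Markers of the cell types in the gland also differed among the mice. Luminal epithelial markers had a level of 0.33, 0.06, 0.08, -0.27 and -0.20. Krt18, a keratin of luminal cells, read 8.82, 8.32, 8.19, 7.19 and 7.28, and Cdh1, which encodes E-cadherin, read 7.87, 8.0, 8.09, 6.74 and 6.53. Both were lowest in CBA 4 and CBA 5, as was the acute phase list, while Elf5, a transcription factor of alveolar cells, was highest in CBA 3 (10.62, 10.69, 11.39, 10.97 and 11.25). The tight junction gene Cldn3 was highest in CBA 1 (9.64, 8.74, 7.94, 8.42 and 8.22). Myoepithelial markers, of the contractile cells around the alveoli, were highest in CBA 1 for 9 of 12 genes, against 20.1% of all genes. Their levels were 0.62, 0.30, -0.35, -0.26 and -0.31. Acta2 (smooth muscle actin) read 11.46, 11.39, 10.89, 10.40 and 10.52, and Myh11 read 7.07, 6.65, 4.91, 5.99 and 5.49, but the keratins Krt5 and Krt14 spread less, with SDs of 0.11 and 0.29. The part of these markers in the high values of CBA 1 was not tested.

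Adipocyte markers had levels of -0.29, 0.28, 0.39, 0.06 and -0.43 and 8 of 14 were lowest in CBA 5, against 18.4% of all genes. Fabp4, the fatty acid carrier of fat cells, read 9.57, 10.29, 10.70, 9.70 and 9.40, and Adipoq, which encodes adiponectin, read 6.63, 7.75, 7.77, 8.05 and 6.75. The pair of low mice for Adipoq, CBA 1 and CBA 5, was also the pair of low mice for Scd1, which fat cells express too, and the part of adipocytes in the low fat synthesis level of CBA 1 was not tested. In CBA 5, which had the lowest adipocyte level, the fat synthesis level was -0.05. CBA 2 and CBA 3 held the 2 highest values for 8 of the 14, against 14.0% of all genes, and these were the mice on the MOE430A 2.0 chip. The 14 include Cox7a1, which passed the signal filter only through CBA 3. Fibroblast and collagen genes were highest in CBA 2 for 12 of 19, against 13.3% of all genes, and lowest in CBA 3 for 15, against 27.1%. Col3a1, a fibrillar collagen, read 8.97, 9.84, 8.76, 8.95 and 8.93, and Dcn (decorin) read 6.69, 7.31, 6.24, 6.54 and 6.46.

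Plasma cells of the lactating gland supply IgA to milk. Igha, its heavy chain, read 11.52, 12.03, 9.70, 9.58 and 9.66, and Jchain, which joins IgA units, read 9.09, 9.64, 8.21, 7.03 and 6.60. CBA 1 and CBA 2 were the 2 highest mice for both. Ighm, the heavy chain of IgM, had an SD of 0.09, and the B cell genes Cd79a, Cd79b and Ms4a1 were below the filter in signal. Of 25 skeletal muscle genes on the chip 7 were kept, with levels between -0.15 and 0.12, and of 14 skin keratinocyte genes 2 were kept. Xist, the RNA of the inactive X chromosome, was kept and the Y-linked genes Kdm5d, Uty and Eif2s3y were not.

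Genes of endocrine, stress and daily regulation also spread. Of the glucocorticoid and stress list 9 of 15 had an SD above 0.5 (median SD 0.55), and of the circadian clock list 3 of 12 (median SD 0.34), against 7.76% of all genes. Pdk4, on the glucocorticoid and stress list, passed the signal filter only through CBA 1. With the filter set without CBA 1 it was 8 of 14 genes of that list, against 7.69% of all genes. The level of the clock list was -0.24, 0.23, 0.41, -0.40 and -0.01. Igf1, the growth factor, was low in CBA 3 on all 3 of its probe sets (brightest 7.39, 7.12, 4.64, 7.73 and 7.40). Sgk1, a kinase induced by glucocorticoids, read 3.93, 5.67, 8.67, 7.69 and 6.43, a range of 26.7-fold. Id2, a regulator needed for alveolar growth, read 6.69, 8.02, 9.15, 6.69 and 6.34. Both Sgk1 and Id2 were thus highest in CBA 3. The clock output genes Dbp (4.32, 6.24, 6.58, 4.87 and 6.75) and Hlf (6.88, 8.22, 9.15, 6.38 and 7.26) were lowest in CBA 1 and CBA 4, and both are known to vary with the hour of the day. Hlf followed the order of the end difference of the control probe sets, and Dbp did not. The core clock genes Clock and Npas2 had an SD of 0.12 each. Their means of 4.56 and 4.54 lay near the floor of the filter, among probe sets with a median SD of 0.19. Mt2, a metallothionein of the stress response, read 10.76, 10.20, 10.87, 7.81 and 9.10, and Txnip, which glucose induces, read 9.74, 6.98, 8.38, 8.18 and 9.80. CBA 4 was the low mouse for Mt2 and CBA 2 for Txnip. Ribosomal protein genes stayed together, with 0 of 42 above an SD of 0.5, against 7.76% of all genes, and a median SD of 0.21. ER chaperone genes had a median SD of 0.24.

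The 2 chip types were compared within the strain, since CBA 2 and CBA 3 were on the MOE430A 2.0 chip. With limma, 0 of 11032 probe sets (0.0%) differed at a Benjamini-Hochberg adjusted p under 0.05, and the smallest adjusted p was 0.122, while 1531 (13.9%) had an unadjusted p under 0.05. An intensity trend or a robust fit in limma also gave 0, with 1517 and 1520 at an unadjusted p under 0.05. The smallest p was that of Fscn1, an actin-bundling protein, which read 4.34, 6.15, 6.01, 4.14 and 4.34 and was 1.81 higher on the log2 scale on MOE430A 2.0 (SE 0.15, limma adjusted p = 0.122). In simulated data of this size, 26 of 50 probe sets changed by 1 on the log2 scale and 49 of 50 changed by 2 were recovered. The spread and the number of changed probe sets were chosen for the simulation and not taken from these data. It therefore does not show how large a chip difference would be found here. Fscn1 at 1.81 and a probe set without a symbol at 2.12 were not called (limma adjusted p = 0.122 and 0.125). Without CBA 2, which leaves CBA 3 as the only MOE430A 2.0 array, 40 probe sets differed, 39 of them higher in CBA 3.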

How the data were processed

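RNA of lactating mammary glands was measured with 1 array per mouse. The log2 values as deposited were computed by the authors with RMA (affy package: background correction, quantile normalization, 1 value per probe set) from the 22690 probe sets common to both chip types, and versions are not given in the sources used here. Only the 5 CBA arrays were used, and groups came from the sample titles. The tables held 0 columns of no sample, and 0 arrays were duplicates of each other. RMA was run by the authors on all 10 arrays, so that each value also depends on the arrays of the other strain.

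The 64 control probe sets were set aside, apart from those used for the end difference. Of the other 22626, 20380 carried 1 gene symbol, 691 several and 1555 are unnamed here; 20351 were matched by Entrez identifier and 0 symbols changed. Probe sets were kept where the CBA mean exceeded 20 unlogged (11032, 48.8%). Spread is the SD of 5 log2 values, with a threshold of 0.5. The 5 arrays do not allow a correlation between genes across mice, and no list was tested. A value lay apart where its gap to the nearest mouse exceeded 0.71 of the range. Chip types were compared with limma 3.58.1 in R 4.3.3 (two-sided). The fit was tested on simulated data of 11032 probe sets, in which 0 of 50 changed by 0.5 were recovered and 7 unchanged ones were called.

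The arrays and gene lists were chosen with earlier results of these data known. Genes were named from among the 20 highest means, the 25 largest SDs, the 10 smallest SDs among the 1791 genes of highest mean, and per list 4 by SD and 2 by mean, with 6 genes per mouse and direction. Other names, such as Usp18, Cx3cr1, Fasn, Acly, Thrsp, Elovl5, Irgm1, Irf1, Stat3, Ctsl, Tgfb3 and Psma6, and any gene below the filter, were chosen after their values were seen. Alternatives were another filter, a second quantile normalization, median centring, probe sets ending in _x_at or _s_at left out, the mean of all probe sets of a gene, the filter without 1 mouse, chip type removed, and each mouse left out. The number of arrays limits the precision. The sources do not say that glands were handled apart, so that the spread may be partly technical.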

Additional observations from a re-analysis of the deposited data

Results flagged for a closer look

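For a list or gene named in the report, a mouse is given here where its gap to the nearest mouse exceeded 0.71 of the whole range of the 5. Chance gives this for about 1 in 20 groups, and 6.07% of the 7164 genes met it. CBA 3 lay apart on the high side in the level of 5 lists, at 0.27 for milk proteins, 1.52 for interferon-induced genes, 0.73 for MHC class I and II, 0.59 for macrophage markers and 0.51 for the proteasome. These lists share genes, among them B2m, Lyz2, Tap1, Psmb8 and Psmb9. Of the 20 milk protein genes CBA 3 was highest for 9 but lowest for 7, and their level there was -0.041 as a median over members. Single genes in which CBA 3 lay apart on the high side were Iigp1 (11.76), Igtp (10.56), Gbp2 (9.13), Irgm1 (8.09), Psmb8 (8.08), Psmb9 (8.03), Gbp3 (7.98), Oas1a (7.24), Psmb10 (7.19), Tap1 (6.86) and Ifi47 (8.42). Chil1 (8.61) and S100a8 (8.48) did so too, with Ctss (7.76) and Adgre1 (6.39), and Igf1 (4.64) on the low side. CBA 1 lay apart on the high side in Cebpd (9.03), Rhob (8.0) and Pdk4 (7.54). It lay apart on the low side in Fasn (10.44), Thrsp (10.31), Elovl5 (10.10), Lpl (11.74) and Lpin1 (7.52). CBA 2 lay apart on the high side in Col3a1 (9.84) and Csn1s1 (13.78). CBA 4 did so on the high side in Egr1 (5.55) and on the low side in Olah (11.09) and Rab2a (8.82).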

How the results depend on the processing

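The 20 top-ranked genes shared 17 (without probe sets ending in _x_at or _s_at) to 20 members with the ranking of each alternative run, and 25 to 28 of 31 lists had a median SD above that of all genes, against 27 as reported. The count of probe sets with an SD above 0.5 was 722 without CBA 3 and 1157 without CBA 2, the extremes over mice left out, 672 with the chip type mean removed, and 556 of 7164 on 1 probe set per gene. Counts by mouse changed with the filter: with a CBA mean over 50 unlogged they were 240 for CBA 3 high, 115 for CBA 1 high, 41 for CBA 2 high, 35 for CBA 4 high, 10 for CBA 2 low and 5 for CBA 5 high, from fewer probe sets. Without probe sets ending in _x_at or _s_at they were 37 for CBA 2 high and 5 for CBA 5 high, and after a second quantile normalization 17 for CBA 5 high. The level of milk proteins in CBA 3 was -0.041 as a median over members, and that of milk fat globule genes in CBA 3 was -0.032 after a second quantile normalization. The level of the ATF4 target list in CBA 4 was 0.21 without _x_at and _s_at probe sets, and that of B and plasma cell genes in CBA 2 was 0.12 as a median. The other 151 list levels kept their direction and size within their error. The chip comparison gave 0 to 40 probe sets with a mouse left out, the 40 being without CBA 2. Counts of list members without each mouse were chosen after seeing the data, and moved by over 1.5 times in 7 of 45 cases, namely without CBA 3 for the interferon (1 of 24), proteasome (1 of 36), MHC (0 of 10), macrophage (0 of 15) and myoepithelial lists (8 of 12, from 5), and without CBA 1 for the fat synthesis (5 of 29) and luminal lists (2 of 16, from 5). No paired analysis was possible because only the 5 mice of one group were used, and the chip types compared share no replicate number. The 5 arrays leave each SD with a wide interval, and signal near the floor of the filter limits what low genes can show.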
